A study of Mus musculus with 30 samples.

Results

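Cytochrome P450 enzymes that oxidise drugs and lipids were followed through the mouse colon: the genes Cyp2c55, Cyp2c65, Cyp2d26, Cyp2j6, Cyp2s1, Cyp3a13, Cyp4b1, Cyp4f14 and Cyp1a1, listed by name as P450s of these families. Of these 9 genes, 8 had a row among the 14475 genes of the deposited table, and Cyp1a1 was not analysed here. The table held 47 genes with a P450 symbol in all, so that 39 others served for comparison. All 30 libraries were used, with every value in FPKM, a read level scaled to gene length and library size.

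P450s are heme enzymes of the endoplasmic reticulum that insert an oxygen atom into their substrate with electrons handed on by P450 reductase. The CYP2 and CYP3 families oxidise many drugs and steroids and turn arachidonic acid into signalling lipids, and the CYP4 family hydroxylates the ends of fatty acids and leukotrienes. In the gut they sit mainly in absorptive epithelial cells and meet food constituents and products of the microbiota first. Nuclear receptors such as PXR, CAR and PPARs, and the aryl hydrocarbon receptor AhR, switch many of them on.

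Ascending and descending colon were taken from female mice, mutant and control littermates for intestinal O-glycans, the sugar chains that build mucus. The mutants, labelled TM-DKOAsc, carried floxed C1galt1 (f/f), VillinCre-ERT2, a Cre recombinase that the Villin promoter drives in gut epithelium and tamoxifen activates, and C3GnT-/-. The labels call the littermates Control, and the protocol calls them WT. Mutants and WT littermates received 0.5 mg tamoxifen (about 20 mg/kg) into the peritoneum on 5 days in a row and were analysed 5 or 10 days after the last dose, and which of both holds for a library is not given. There were 8 mutant and 7 control libraries from each region, from cages A (3 mutants and 2 controls per region, 3.4 months, labelled C57BL/6 background), B (2 and 3, 2.6 months) and C (3 and 2, 3.2 months), both labelled mixed BL/6-129SvJ. By the design text, all groups were colonized by one and the same microbiota. Cage cannot be told apart from strain label and age. Nothing in the labels ties an ascending piece to a descending piece of one mouse or states that each library is a separate mouse, so the p-values measure the spread between these libraries.

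Libraries were shallow and unequal. Estimated depth was 1.43 to 7.76 M reads in ascending mutants, with A1 to A3 at 1.43 to 1.59 M, 3.42 to 6.46 M in ascending controls, 6.49 to 8.85 M in descending mutants and 3.17 to 8.75 M in descending controls. C1galt1 was 18.3 to 34.3 FPKM in ascending mutants and 21.5 to 45.7 FPKM in ascending controls, and 14.6 to 36.7 FPKM in descending mutants and 28.0 to 38.7 FPKM in descending controls. B3gnt6, the gene of C3GnT, was listed at 0 in 5 of 8 ascending mutants and 7 of 8 descending mutants, against 0 of 7 ascending controls and 3 of 7 descending controls. The ranges of mutants and controls overlapped for both genes in both regions, which part of C1galt1 is floxed is not given, and the genotypes used are those of the labels. Each library held epithelial RNA. Summed over 11 colon epithelium markers, the level was 11910 to 18455 FPKM in ascending mutants, 7017 to 12119 FPKM in ascending controls, 3585 to 7701 FPKM in descending mutants and 3357 to 8616 FPKM in descending controls. Abundant markers weigh most in such a sum, and single markers ran both ways between regions. Of the 11, 6 were above 0 in ascending minus descending mutants and 4 in controls, with median log2 differences of 0.11 and -0.05. In all, 3 libraries lay apart from their group in several P450s, ascending control B1, descending control A2 and descending mutant C1.

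Promoters are shown for the 2 neighbouring Cyp2c genes and for Cyp4b1, because these were the most abundant gene and the genes with the widest regional difference. The stretches come from RefSeq (GRCm38.p6) and read 5′ to 3′ on the gene's strand. Capitals mark letters of a searched motif, and bases inside the RefSeq gene record are left out.
Cyp2c55 (chr19:39006769-39006939, plus strand): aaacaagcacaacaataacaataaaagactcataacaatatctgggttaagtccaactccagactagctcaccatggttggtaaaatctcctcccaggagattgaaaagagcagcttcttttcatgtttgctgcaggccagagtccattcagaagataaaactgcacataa
Cyp2c65 (chr19:39060756-39061005, plus strand): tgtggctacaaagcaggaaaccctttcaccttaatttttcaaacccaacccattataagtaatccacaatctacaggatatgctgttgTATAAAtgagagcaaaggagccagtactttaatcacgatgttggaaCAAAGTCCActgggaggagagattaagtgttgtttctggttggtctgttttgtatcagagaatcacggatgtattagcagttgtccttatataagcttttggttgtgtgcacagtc
Cyp4b1 (chr4:115647724-115647971, minus strand): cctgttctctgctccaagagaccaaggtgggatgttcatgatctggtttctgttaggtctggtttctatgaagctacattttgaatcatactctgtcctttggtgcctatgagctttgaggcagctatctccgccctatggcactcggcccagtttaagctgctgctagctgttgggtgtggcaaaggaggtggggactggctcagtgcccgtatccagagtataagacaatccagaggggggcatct
In Cyp2c65 the capitals are TATAAA, the letters of the TATA box motif, beginning 162 bases before the RefSeq start, and CAAAGTCCA, the core letters of a site for HNF4, an epithelial nuclear receptor, 116 bases before it. This start was not found in a GENCODE M21 transcript of the gene, so both distances hold for the RefSeq start only.

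The search covered both strands of the 250 bases before each RefSeq start, for all 8 genes and for 32851 windows in all. Bases after the start were not searched. TATAAA was in the windows of Cyp2c55, Cyp2c65 and Cyp2d26 and in 12.4% of all windows. In Cyp2c55 it lay 29 bases before the start, beyond the stretch shown, and in Cyp2d26 31 bases before it on the other strand. CAAAGTCCA was in the window of Cyp2c65 alone among the 8 genes and in 0.384% of all windows. GCGTG, the core letters bound by AhR, was in 28.2% of all windows. Among the 8 genes it was in Cyp4f14 only, 237 bases before the most upstream of its RefSeq starts, on the other strand. That start was not found in a GENCODE M21 transcript of the gene, and the windows of its other starts held no match. The nuclear receptor half-site AGGTCA (14% of windows) and the HNF1 site (0.00913%) matched in none of the 8. None of the matches overlapped another. The windows are short, and a match is a description of letters.

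Per length, Cyp2c55 stood far above the other 7 genes. In ascending mutants it averaged 2970 ± 422 FPKM (SD, n = 8) and in ascending controls 2306 ± 505 FPKM (n = 7), and no other of the 8 averaged above 180 FPKM in any group. In ascending controls Cyp3a13, Cyp4f14 and Cyp2c65 followed at 144 ± 33.8, 131 ± 48.2 and 116 ± 30.9 FPKM, which overlapped one another. Below them came Cyp4b1 at 50.5 ± 28.3, Cyp2d26 at 40.4 ± 17, Cyp2s1 at 37.1 ± 6.03 and Cyp2j6 at 19.4 ± 3.67 FPKM, where neighbours overlapped except Cyp2s1 and Cyp2j6. In descending controls the order was another one: Cyp2c55 at 396 ± 259 FPKM led, Cyp3a13 (52.5 ± 8.66) and Cyp2s1 (36.5 ± 5.11) came next, then Cyp4f14 (18.8 ± 24.2), Cyp2j6 (11.1 ± 3.37), Cyp2d26 (5.08 ± 1.18) and Cyp2c65 (3.82 ± 4.02), and Cyp4b1 was last at 0.267 ± 0.177 FPKM. Without library A2 Cyp4f14 averaged 9.7 FPKM, below Cyp2j6 at 12.4 FPKM. In this region Cyp2c55 and Cyp4b1 did not overlap their neighbours, and neighbours among the 6 genes between them overlapped. The overlaps of Cyp2s1 with Cyp4f14, of Cyp2j6 with Cyp2d26 and of Cyp2d26 with Cyp2c65 came through library A2 alone. The plot of levels by library shows the regions apart for most of the genes and the genotypes overlapping for each.

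**Figure D1:**
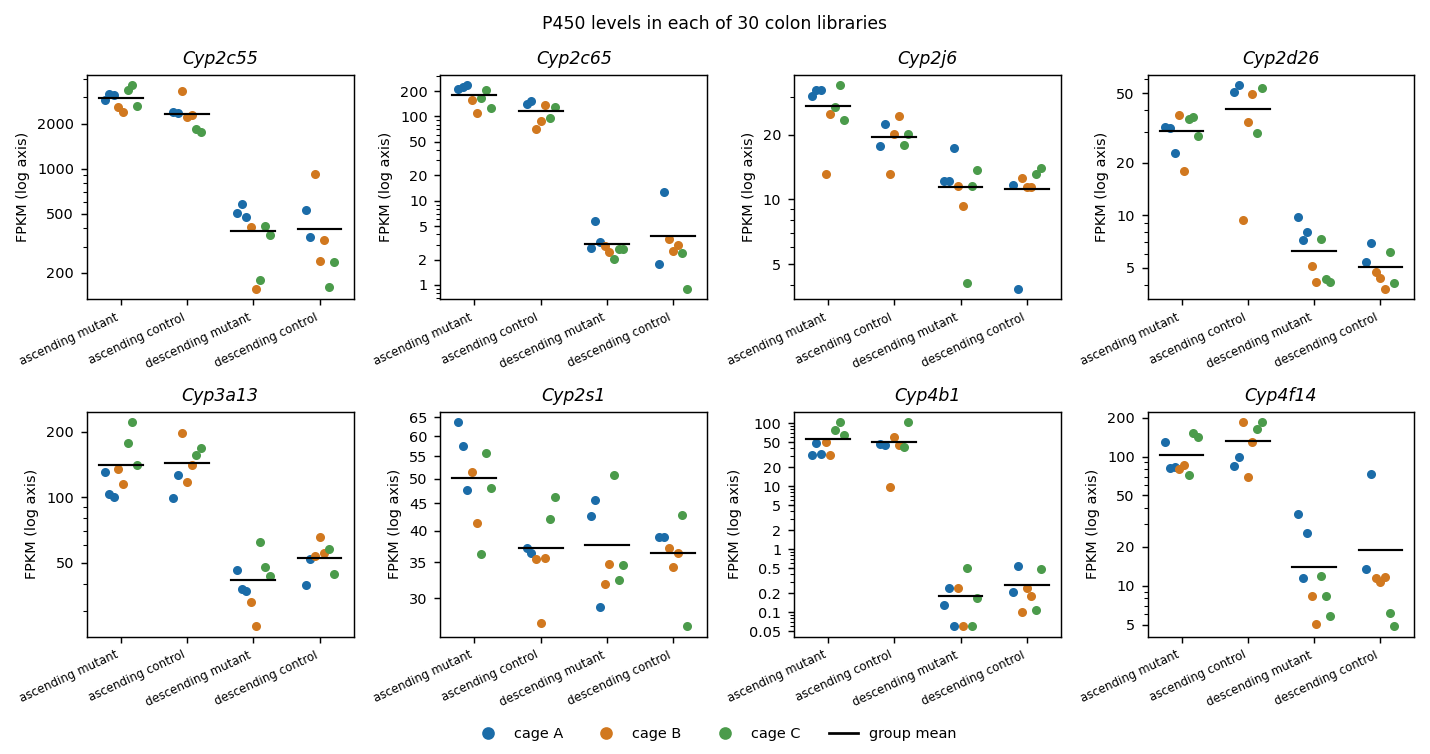
FPKM of the 8 P450 genes (log axis) in each of 30 libraries, in ascending mutants, ascending controls, descending mutants and descending controls; points are libraries coloured by cage, and bars are group means. All ascending libraries lie above all descending libraries of the same genotype for Cyp2c55, Cyp2c65, Cyp2d26, Cyp3a13 and Cyp4b1, and the groups overlap for Cyp2s1.

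Where along the colon each P450 is used was read from ascending minus descending libraries within a genotype, fitted with limma and cage as a covariate. In mutants 8 of the 8 genes passed at an adjusted p under 0.05 as higher in the ascending colon, where 44.0% of 12203 genes passed, 14.3% as higher and 29.7% as lower. In controls 7 of the 8 passed, all 7 higher, where 37.9% of 12515 genes passed, 12.8% as higher and 25.1% as lower. Both counts include Cyp4b1, which reached the filter of 0.5 FPKM through the ascending libraries alone and so had to differ. Of the 7 genes that reached it in both regions, 7 passed in mutants and 6 in controls. The gene that passed in mutants only was Cyp2s1, and whether its regional difference depends on genotype is the interaction given below. The split of all calls moved with scaling: higher calls were 32.6% in mutants and 33.7% in controls, and with median-of-ratios scaling 50.3% in mutants and 53.1% in controls. That scaling put the median of all genes at -0.03 in mutants and -0.01 in controls, in place of -0.16 and -0.14. The counts of 8 and 7 were the same under that scaling and with the 3 libraries that lay apart left out, a check chosen after seeing the data. In bulk tissue, fewer cells of a type and less RNA per cell cannot be told apart.

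Cyp2c55, an enzyme that oxidises arachidonic acid in mouse, had 2394, 2981 and 3646 FPKM in ascending mutants (lowest, median and highest of 8) and 156, 407 and 581 FPKM in descending mutants. In ascending controls the 3 values were 1765, 2301 and 3301 FPKM and in descending controls 162, 332 and 922 FPKM. No descending library reached an ascending one in either genotype, and B1 was the highest control in both regions. The means differed 7.75-fold between regions in mutants and 5.83-fold in controls. On the log2(FPKM + 1) scale the ascending excess was 3.06 ± 0.24 in mutants (limma, SE, adjusted p = 2.54e-08) and 2.73 ± 0.29 in controls (adjusted p = 9.57e-06).

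Cyp2c65, its neighbour on chromosome 19 and a gut Cyp2c that also oxidises arachidonic acid, had 111, 187 and 238 FPKM in ascending mutants and 2.03, 2.69 and 5.73 FPKM in descending mutants. Ascending controls had 71.4, 129 and 152 FPKM and descending controls 0.89, 2.50 and 12.7 FPKM. The regions were far apart, and descending control A2 was the one descending library above 6 FPKM. Means differed 58.9-fold in mutants and 30.4-fold in controls, with log2 differences of 5.47 ± 0.14 (limma, adjusted p = 1.05e-14) and 4.84 ± 0.30 (adjusted p = 1.72e-07). Without descending control A2 the descending control mean was 2.34 FPKM and the ratio in controls 49.7. Of the 50-base stretches of its transcripts, 20.6% also occur in another gene, mostly Cyp2c66, so part of its level is uncertain.

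Cyp4b1, a fatty acid hydroxylase that also activates some plant toxins, had the largest ratio of regional means of the 8 genes. Ascending mutants had 31.7, 49.2 and 103 FPKM, and descending mutants 0.06, 0.15 and 0.50 FPKM. Ascending controls had 9.82, 45.7 and 104 FPKM, and descending controls 0.10, 0.21 and 0.54 FPKM. No ascending library came near a descending one. Descending values correspond to an estimated 0.949 to 7.58 reads in mutants and 1.97 to 5.69 in controls, so the ratios of means, 301 in mutants and 189 in controls, are imprecise in size. The log2 differences of 5.45 ± 0.17 in mutants and 5.12 ± 0.34 in controls are given as a description, with a size set in part by the pseudocount. The gene was not tested between genotypes in the descending colon.

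Cyp4f14, which in mouse hydroxylates leukotriene B4 and thereby ends its signal, had 71.5, 84.5 and 152 FPKM in ascending mutants and 5.06, 9.88 and 36.2 FPKM in descending mutants. Ascending controls had 69.7, 129 and 185 FPKM and descending controls 4.84, 11.5 and 73.2 FPKM. The regions did not overlap in mutants and did in controls, through descending control A2 alone. Log2 differences were 3.01 ± 0.28 in mutants (limma, adjusted p = 2.77e-07) and 3.20 ± 0.44 in controls (adjusted p = 9.04e-05).

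Cyp2j6, of a family whose members epoxidise arachidonic acid, differed less. It had 13.2, 28.6 and 34.1 FPKM in ascending mutants and 4.08, 11.8 and 17.3 FPKM in descending mutants, against 13.1, 20.1 and 24.5 FPKM in ascending controls and 3.82, 11.7 and 14 FPKM in descending controls. The regions overlapped in both genotypes, although within every cage the ascending libraries lay above the descending ones of the same genotype. Log2 differences were 1.21 ± 0.20 in mutants (limma, adjusted p = 0.000173) and 0.80 ± 0.21 in controls (adjusted p = 0.00933), and without cage B the value in controls was 0.95 ± 0.31 and missed the threshold (adjusted p = 0.0734).

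Among the P450s known for drugs and steroids, Cyp2d26, of the family of the human drug enzyme CYP2D6, had 18.0, 31.9 and 37.8 FPKM in ascending mutants and 4.14, 6.14 and 9.83 FPKM in descending mutants. In ascending controls it had 9.35, 49.3 and 56.0 FPKM and in descending controls 3.78, 4.76 and 6.99 FPKM. Within a genotype the regions did not overlap, and ascending control B1 was the low ascending library, below the highest descending mutant. Log2 differences were 2.13 ± 0.17 in mutants (limma, adjusted p = 4.34e-08) and 2.62 ± 0.28 in controls (adjusted p = 1.29e-05).

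Cyp3a13, of the broad drug and steroid family Cyp3a, had 100.4, 132 and 222 FPKM in ascending mutants and 25.5, 40.6 and 62.2 FPKM in descending mutants. Ascending controls had 98.7, 140 and 198 FPKM and descending controls 39.5, 53.5 and 65.8 FPKM. All ascending libraries were above all descending ones. Log2 differences were 1.73 ± 0.13 in mutants (limma, adjusted p = 2.30e-08) and 1.42 ± 0.14 in controls (adjusted p = 4.55e-06).

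Cyp2s1, a P450 of epithelia outside the liver that AhR ligands induce, was the exception. It had 36.2, 49.7 and 63.8 FPKM in ascending mutants and 28.9, 34.6 and 50.8 FPKM in descending mutants. Ascending controls had 26.9, 36.3 and 46.3 FPKM and descending controls 26.6, 37.2 and 42.9 FPKM. All 4 groups overlapped. In controls the sign turned with array quality weights and without cage C. The log2 difference was 0.41 ± 0.13 in mutants (limma, adjusted p = 0.0201) and 0.02 ± 0.12 in controls (adjusted p = 0.906). In mutants the call was lost with quantile normalization (0.38, adjusted p = 0.0534), without cage A (0.33, adjusted p = 0.148) and without cage B (0.39, adjusted p = 0.0837).

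Gene by gene, 6 of 8 had no overlap between regions in mutants and 5 of 8 in controls, with the ascending libraries on top. Of all genes 5.62% did so in mutants and 3.83% in controls. Both counts, and the sets below, include Cyp4b1. This gene reached the filter through the ascending libraries alone, so its lack of overlap is a description. Split further into the 6 sets of a cage and a genotype, Cyp2c55, Cyp2c65, Cyp2d26, Cyp2j6, Cyp3a13, Cyp4b1 and Cyp4f14 were higher in the ascending colon without overlap in 6 of 6 sets. Of 12351 genes averaging 0.5 FPKM or more over the 30 libraries, 4.59% did so in all sets, each of which holds 2 or 3 libraries per region. The set means spanned 4.58 to 5.58 for Cyp2c65, 2.46 to 3.42 for Cyp2c55 and 1.49 to 4.76 for Cyp4f14, on the log2 scale. Cyp2s1 was higher in 4 of 6 sets, with values from -0.15 to 0.53.

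Other P450s ran in both directions. Of 27 others tested in mutants, 5 were higher in the ascending colon, 11 lower and 11 did not pass. In controls 26 were tested, with 5 higher, 10 lower and 11 not passed. Beside them stand the 14.3% of all genes that were higher and 29.7% that were lower in mutants, and 12.8% and 25.1% in controls. Of the 18 others that reached the filter in both regions, 2 were higher and 7 lower in each genotype, with medians of -0.29 in mutants and -0.44 in controls. Cyp2d12 averaged 0.891 ± 0.5 FPKM in ascending controls and 24.9 ± 7.22 FPKM in descending controls, a log2 difference of -3.75 (limma, adjusted p = 1.68e-07). Cyp2f2, known in mouse airways for oxidising naphthalene, averaged 0.336 ± 0.156 FPKM in ascending controls and 14.9 ± 6.5 FPKM in descending controls, and reached the filter through the descending libraries alone. Cyp2c68 averaged 3.62 ± 1.01 and 44 ± 19.3 FPKM in ascending and descending controls (-3.09, adjusted p = 2.10e-05), and Cyp2d10 averaged 7.44 ± 2.2 and 32.1 ± 11.5 FPKM (-1.94, adjusted p = 2.10e-05).

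With higher values in the ascending colon, Cyp3a44 averaged 14.6 ± 11.4 FPKM in ascending controls and was listed at 0 in all 7 descending controls. Cyp3a25 averaged 3.49 ± 3.11 FPKM in ascending controls and 0.00714 FPKM in descending controls. Both reached the filter through the ascending libraries alone, so their differences are a description. These low relatives share long stretches with close copies: 26.5% of 50-base stretches in Cyp3a44, 26.8% in Cyp3a25, 43.3% in Cyp2c68 and 35.8% in Cyp2d10 occur in another gene, so their levels are uncertain. The share was 0 in Cyp3a13, 0.422% in Cyp2j6, 1.13% in Cyp2c55, 2.39% in Cyp4f14, 4.25% in Cyp2s1, 8.26% in Cyp4b1 and 9.49% in Cyp2d26.

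**Figure D2:**
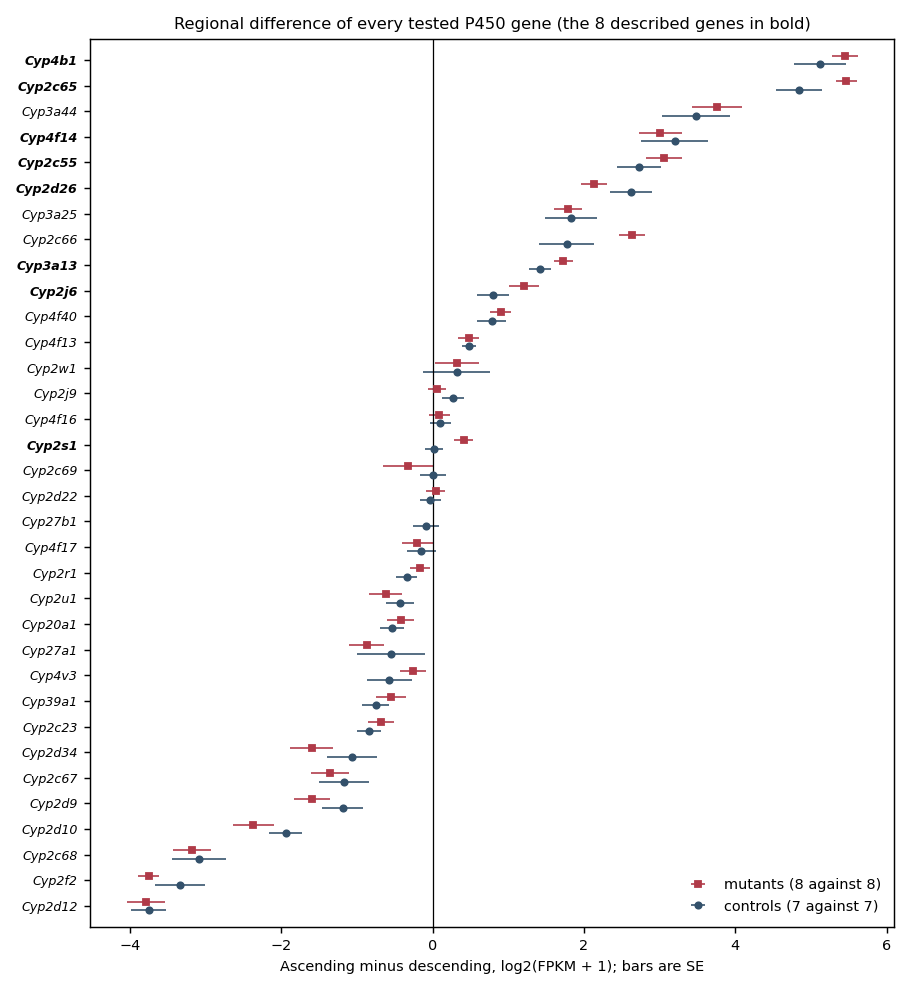
Ascending minus descending difference in log2(FPKM + 1) for the P450 genes tested in controls, with the limma estimate ± SE in mutants (squares) and in controls (circles); names of the 8 genes described are bold. Cyp4b1 and Cyp2c65 lie highest and Cyp2d12 and Cyp2f2 lowest, and Cyp2s1 in controls lies at 0.02.

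Genes of a cluster ran in opposite directions, which was looked at after their values were seen. On chromosome 19, Cyp2c55 (chr19:39007019-39042693), Cyp2c65 (chr19:39061015-39093944) and Cyp2c66 lie side by side on the plus strand. Cyp2c55 and Cyp2c65 were higher in the ascending colon, and Cyp2c66 averaged 3.20 FPKM in ascending and 0.0343 FPKM in descending controls. Further along on the minus strand Cyp2c68 was lower there by limma, and Cyp2c67 averaged 0.0829 FPKM in ascending and 2.05 FPKM in descending controls. Cyp2c66 and Cyp2c67 each reached the filter through one region, and 19.5% and 52.8% of their 50-base stretches occur in other genes. In the Cyp2d cluster of chromosome 15, Cyp2d26 (chr15:82790101-82794294, minus strand) was higher in the ascending colon, while Cyp2d10, Cyp2d9 (-1.19, adjusted p = 0.0036, 21.8% of stretches shared), Cyp2d12 and Cyp2d34 (-1.06, adjusted p = 0.023) were lower, and Cyp2d22 was at -0.03 (adjusted p = 0.901). On chromosome 17, Cyp4f14 (chr17:32905070-32917342, minus strand) was at 3.20 and its neighbours Cyp4f40 (0.78, adjusted p = 0.00494) and Cyp4f13 (0.48, adjusted p = 0.00139) were higher by less. The other 4 genes lie at chr4:96516138-96553661 (Cyp2j6), chr7:25802475-25816913 (Cyp2s1), chr5:137892932-137921619 (Cyp3a13) and chr4:115624725-115647723 (Cyp4b1), all on the minus strand, in GENCODE M21 (GRCm38).

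**Figure D3:**
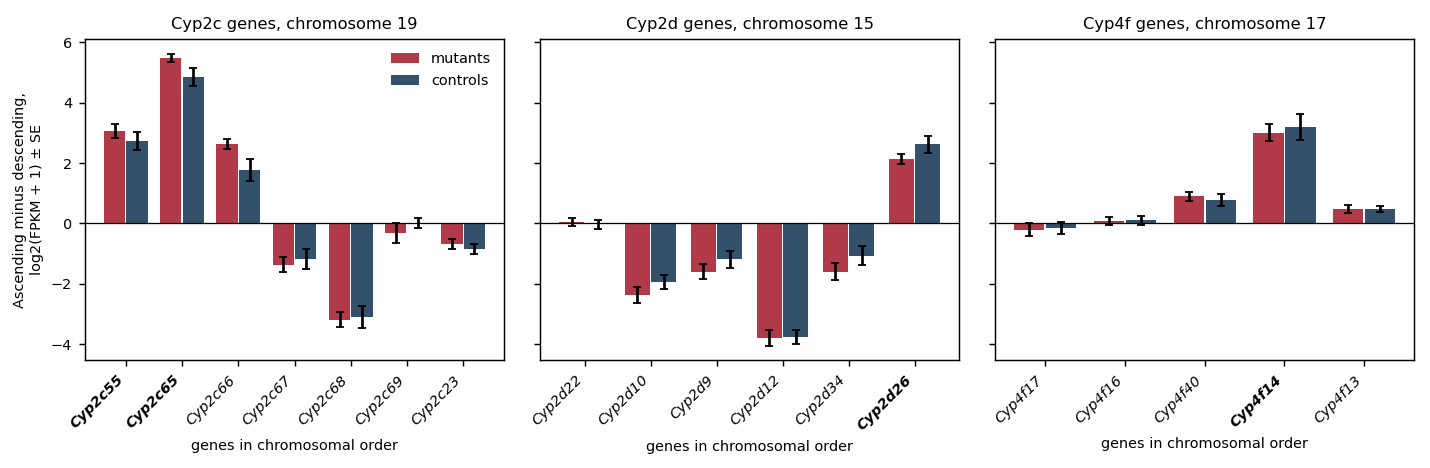
Ascending minus descending difference in log2(FPKM + 1), limma estimate ± SE, for tested genes of the Cyp2c, Cyp2d and Cyp4f clusters in chromosomal order, with mutants as left and controls as right bars. Cyp2c55, Cyp2c65 and Cyp2c66 lie above 0 and Cyp2c67 and Cyp2c68 below it, and Cyp2d26 lies above 0 beside relatives below it.

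Cyp2c55 made up most of the summed P450 level in the ascending colon. All P450 genes of the table summed to 3783 ± 508 FPKM in ascending mutants (3043 to 4675) and 3091 ± 474 FPKM in ascending controls (2681 to 4074). They summed to 906 ± 149 FPKM in descending mutants (616 to 1086) and 911 ± 258 FPKM in descending controls (720 to 1443). No descending library reached an ascending one. Cyp2c55 made up 78.4% ± 1.55 of the sum in ascending mutants, 74.1% ± 5.74 in ascending controls, 41.6% ± 13.2 in descending mutants and 40.3% ± 13.7 in descending controls. The 8 genes together held 92.6 to 95.4%, 88.8 to 93.9%, 31.6 to 66.4% and 40.0 to 72.4% of the sum in these 4 groups, in the same order. The other 39 genes made up a larger share in each descending group than in either ascending group.

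**Figure D4:**
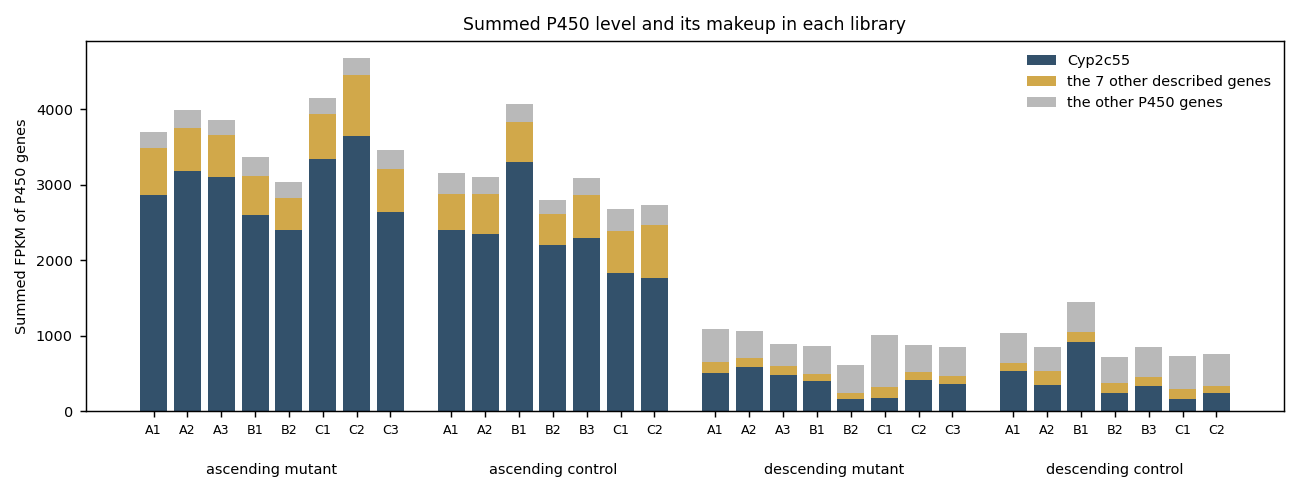
Summed FPKM of the 47 P450 genes in each library, stacked as Cyp2c55, the 7 other described genes and the other P450 genes, for ascending mutants, ascending controls, descending mutants and descending controls. Cyp2c55 fills most of each ascending bar, and its share of the descending bars averages 41.6% in mutants and 40.3% in controls.

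Cell markers moved with region too. By limma, 6 of 8 markers of crypt stem and dividing cells passed as lower in the ascending colon in mutants and 7 of 8 in controls. All 8 lay below 0 in both genotypes. Of all genes 29.7% passed as lower and 14.3% as higher in mutants, and 25.1% and 12.8% in controls. Of absorptive colonocyte markers that reached the filter in both regions, 5 passed as higher and 4 as lower of 10 in mutants. In controls 4 passed as higher and 3 as lower of 9. The 11 markers summed to 11454 to 18881 FPKM in ascending mutants and 2249 to 4478 FPKM in descending mutants, against 6716 to 12194 FPKM in ascending controls and 2078 to 5039 FPKM in descending controls. Smooth muscle markers summed to 8.94 to 56.2 FPKM in ascending mutants and 41.9 to 286 FPKM in descending mutants. In controls they summed to 16.8 to 426 FPKM in the ascending and 32.3 to 445 FPKM in the descending colon. As lower in the ascending colon 8 of 8 passed in mutants and 1 of 8 in controls. In mutants 1 of them, Synm, reached the filter through the descending colon alone (0.448 and 3.3 FPKM in ascending and descending mutants). Of the 7 that reached it in both regions, 7 passed in mutants. All 8 lay below 0 in both genotypes, with medians of -1.93 in mutants and -1.49 in controls. T cell markers summed to 8.02 to 31 FPKM in ascending mutants and 0.42 to 2.02 FPKM in descending mutants, against 12.7 to 53.3 FPKM in ascending controls and 0.77 to 2.35 FPKM in descending controls. The part of these markers in the P450 differences was not tested. Markers of hepatocytes summed to 1.44 to 3.99 FPKM in ascending mutants and 23.8 to 69 FPKM in descending mutants, against 1.5 to 5.31 FPKM in ascending controls and 12.3 to 62.6 FPKM in descending controls. Among them Alb, the albumin gene, was listed at 0 in all 8 ascending mutants and all 7 ascending controls and reached at most 2.66 FPKM in the descending colon. The sum covers 5 genes, of which 2 reached the filter in controls and 3 in mutants, with 2 passed as lower in each genotype. Of these 2, 1 was Alb, which reached the filter through the descending colon alone. Cyp2e1 and Cyp3a11, also in this sum, averaged at most 0.547 and 0.331 FPKM in any group. The sum therefore rests on the few remaining genes, and its source was not tested.

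The enzymes and receptors around P450s were described from lists chosen with earlier results known, by counts and medians in controls, beside all genes, of which 12.8% were higher and 25.1% lower with a median of -0.14. The lists share genes, so their counts are not independent. PXR and CAR targets share Ces2a, Aldh1a1 and Aldh1a7 with other phase I enzymes, Ugt1a1 with conjugating enzymes, Abcc3 with efflux transporters and Alas1 with heme genes. AhR targets share Nfe2l2 with receptors and Ugt1a6a with conjugating enzymes, and partners share Ephx1 and Ephx2 with eicosanoid enzymes, among others. Among 8 P450 partners, 3 were higher in the ascending colon and 1 lower (median 0.34). Por, the reductase that feeds electrons to P450s, averaged 68.9 ± 9.9 FPKM in ascending and 45.1 ± 8.77 FPKM in descending controls (0.61 ± 0.11, limma adjusted p = 0.000867), and Pgrmc1, a heme-binding partner, 84 ± 20.5 and 43.1 ± 8.62 FPKM (0.93, adjusted p = 0.00145). Its relative Pgrmc2 was lower (-0.70, adjusted p = 6.24e-05). Of 12 heme genes 1 was higher and 2 lower (median -0.22). Alas1, the first enzyme of heme synthesis, was higher (0.83, adjusted p = 0.00742), and Cpox (-1.25, adjusted p = 4.68e-05) and Urod (-0.70, adjusted p = 0.0139), later enzymes of the same chain, were lower.

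Of 16 receptors and regulators, 7 were higher and 2 lower (median 0.18). Pparg, a lipid-sensing receptor, averaged 52.8 ± 5.88 FPKM in ascending and 15.4 ± 4.03 FPKM in descending controls (1.74, limma adjusted p = 3.87e-07). Ppara, the receptor that drives many Cyp4 genes, averaged 21.9 ± 11.3 and 3.71 ± 0.913 FPKM in ascending and descending controls (adjusted p = 3.16e-05), and their partner Rxra was higher by 0.98 (adjusted p = 5.43e-06). Nr1i3, the gene of CAR, ran the other way, at 0.193 FPKM in ascending and 1.03 FPKM in descending controls. In mutants it averaged 0.0975 and 1.89 FPKM. Cyp2b10 and Cyp3a11, listed as PXR and CAR targets, averaged 0.0943 and 0.162 FPKM over the 30 libraries and were not tested. Of 13 PXR and CAR target genes 9 were higher and 1 lower (median 1.17), among them Aldh1a1, which makes retinoic acid (3.90, adjusted p = 4.35e-09), and the carboxylesterase Ces2a (1.85, adjusted p = 3.87e-07). Of 9 AhR target genes listed 5 were tested, with 3 higher and 0 lower (median 1.18). The 3 were the quinone reductase Nqo1 by 2.11 (limma adjusted p = 1.32e-05), the stress regulator Nfe2l2 by 0.81 (adjusted p = 0.000399) and Ugt1a6a by 1.18 (adjusted p = 0.00383). Cyp1b1, a P450 on this list, averaged 0.109 FPKM over the 30 libraries and was not tested.

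In the lists of later steps of drug handling, more genes were higher than lower. Of 21 other phase I enzymes 11 were higher and 5 lower (median 0.93), with the esterases Ces1g (4.55, limma adjusted p = 3.23e-07) and Ces2e (2.50, adjusted p = 1.27e-07) higher. Of 16 conjugating enzymes 7 were higher and 1 lower (median 0.61), among them Ugt1a1, which glucuronidates bilirubin (3.79, adjusted p = 1.42e-06). Ugt2b5 averaged 19.3 ± 8.9 FPKM in ascending and 0.08 ± 0.172 FPKM in descending controls, and Ugt2b36 1.66 ± 0.623 and 0.06 ± 0.0768 FPKM. Both are counted as higher and reached the filter through the ascending colon alone, as did Cyp3a25 among PXR and CAR targets. The receptor gene Nr1i3 and 1 other phase I enzyme, counted as lower, reached it through the descending colon alone. Genes of the Ugt1a locus share their last exons, so their separate levels are uncertain. Of 8 efflux transporters 4 were higher and 2 lower (median 0.59): Abcc3, which exports conjugates to the blood side, was higher (1.17, adjusted p = 8.71e-06), as was Abcc5 (1.67, adjusted p = 2.84e-05), and Abcc4 was lower (-1.45, adjusted p = 1.60e-06). Among 13 eicosanoid enzymes 3 were higher and 4 lower (median -0.08), with Hpgd, which inactivates prostaglandins, higher (1.25, adjusted p = 5.92e-05) and Hpgds (-0.90, adjusted p = 0.000141), the prostaglandin D synthase, and Ptgr1 (-0.82, adjusted p = 0.00102) lower. In mutants, where 14.3% of all genes were higher and 29.7% lower, the counts higher and lower were 4 and 1 for partners, 1 and 3 for heme genes, 7 and 2 for receptors, 10 and 1 for PXR and CAR targets, and 4 and 0 for AhR targets. They were 13 and 6 for other phase I enzymes, 11 and 0 for conjugating enzymes, 4 and 2 for efflux transporters and 3 and 5 for eicosanoid enzymes. Of these counts 1 PXR and CAR target, 2 conjugating and 1 eicosanoid enzyme as higher, and 1 receptor, 2 other phase I and 1 eicosanoid enzyme as lower, reached the filter through one region.

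Whether the labelled mutant genotype went with another P450 level was read from mutant minus control libraries within a region, with cage as a covariate. These RNA data hold no measure of O-glycans. In the ascending colon 0 of 8 genes passed, as did 0 of 12178 genes by limma (0% called). At an unadjusted p under 0.05 there were 1396 genes (11.5%), 421 of them higher in mutants (3.46%), and 4 of the 8: Cyp2c65, Cyp2s1, Cyp2j6 and Cyp2c55, all higher, while 975 genes were lower (8.01%). Cyp2c65 averaged 180 ± 46.6 FPKM in ascending mutants and 116 ± 30.9 FPKM in ascending controls (0.54 ± 0.15, limma adjusted p = 0.257), and was above the controls by 0.61, 0.46 and 0.55 in cages A, B and C. Cyp2s1 averaged 50.2 ± 8.95 and 37.1 ± 6.03 FPKM in mutants and controls (0.38 ± 0.12, adjusted p = 0.304), with 0.59, 0.50 and 0.06 by cage. Cyp2j6 averaged 27.2 ± 6.83 and 19.4 ± 3.67 FPKM (0.37 ± 0.16, adjusted p = 0.405), with 0.63, -0.03 and 0.52. Cyp2c55 averaged 2970 ± 422 and 2306 ± 505 FPKM (0.38 ± 0.18, adjusted p = 0.43), with 0.36, -0.04 and 0.82. Mutant and control libraries overlapped in all 4.

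The other 4 showed smaller or mixed values in the ascending colon. Cyp4b1 was at 0.12 ± 0.32, Cyp3a13 at -0.05 ± 0.14, Cyp2d26 at -0.36 ± 0.29 and Cyp4f14 at -0.34 ± 0.22, with limma adjusted p of 0.904, 0.904, 0.653 and 0.564. The sign of Cyp3a13 and Cyp4b1 turned under several settings. Calls depended on cage B and on weighting. Without cage B 652 of 12115 genes passed, among them Cyp2c65 (0.58, limma adjusted p = 0.0368) and Cyp2j6 (0.58, adjusted p = 0.0254). With array quality weights 746 of 12178 genes passed. Among them were Cyp2c65 (0.46, limma adjusted p = 0.0494), Cyp2j6 (0.47, adjusted p = 0.0341) and, lower in mutants, Cyp2d26 (-0.69, adjusted p = 0.0431).

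**Figure D5:**
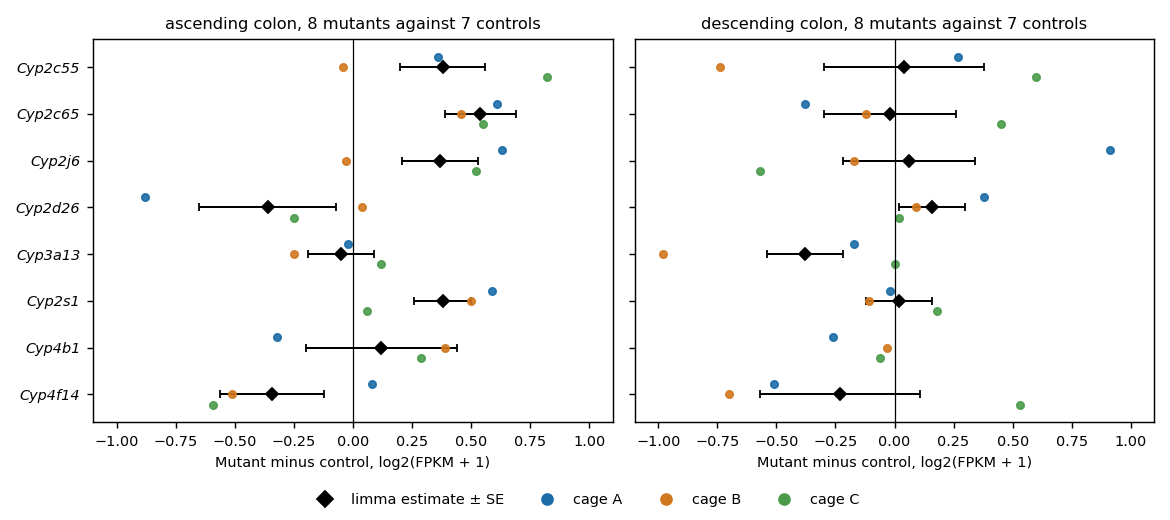
Mutant minus control difference in log2(FPKM + 1) of the 8 genes in the ascending and the descending colon, as the limma estimate ± SE (diamonds) and as the difference of means within cages A, B and C (circles). Cyp2c65 lies between 0.46 and 0.61 in the ascending colon in all 3 cages, and Cyp4b1 has no estimate in the descending colon.

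Cell markers also differed in level between the genotypes without passing. All 8 smooth muscle markers (median -1.12) and all 8 fibroblast and matrix markers (median -0.94) lay below 0 in ascending mutants, while 8 of 11 colon epithelium markers lay above 0 (median 0.21). All 6 macrophage markers tested lay below 0 (median -0.75). Colon epithelium markers summed to a median of 16063 FPKM in ascending mutants and 9235 FPKM in ascending controls, and absorptive colonocyte markers to 15444 and 9883 FPKM, with little overlap between the genotypes. Both lists hold Car1 and Krt20, so these sums are not separate, and abundant genes weigh most in them. The median difference of single markers was 0.21 for colon epithelium and 0.29 for absorptive colonocytes. Smooth muscle markers summed to 8.94 to 56.2 FPKM in ascending mutants and 16.8 to 426 FPKM in ascending controls. The part of these in the P450 values was not tested. From the lists, the lowest p in the ascending colon was that of Aldh1a7, an aldehyde dehydrogenase, at 8.33 ± 3.53 FPKM in mutants and 4.08 ± 1.04 FPKM in controls (0.70 ± 0.14, limma adjusted p = 0.214). Gsta1, a glutathione transferase, averaged 40.4 ± 17 FPKM in mutants and 17.8 ± 14.5 FPKM in controls (1.39 ± 0.38, adjusted p = 0.255), and Nqo1 55 ± 13.1 and 38 ± 13.8 FPKM (0.56, adjusted p = 0.345). Pparg was at 0.36 (adjusted p = 0.272) and Abcc3 at 0.37 (adjusted p = 0.26). No member of the 9 lists passed between genotypes in either region.

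In the descending colon 0 of 7 genes tested passed, as did 0 of 12219 genes by limma (0% called), with 267 genes (2.19%) at an unadjusted p under 0.05, 1.38% of genes as lower and 0.802% as higher. Of the 7, this held for Cyp3a13, at 41.6 ± 11.1 FPKM in mutants and 52.5 ± 8.66 FPKM in controls (-0.38 ± 0.16, limma adjusted p = 0.999). By cage its differences were -0.17, -0.98 and 0.00, and the groups overlapped. Cyp4f14 was at -0.23 ± 0.34, Cyp2d26 at 0.16 ± 0.14, Cyp2j6 at 0.06 ± 0.28, Cyp2c55 at 0.04 ± 0.34, Cyp2s1 at 0.02 ± 0.14 and Cyp2c65 at -0.02 ± 0.28. Cyp2c55 averaged 383 ± 150 FPKM in descending mutants and 396 ± 259 FPKM in descending controls.

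The difference between the genotype effects of both regions passed for 0 of 8 genes and 0 of 12353 genes (limma, 0% called), with 198 genes (1.60%) at an unadjusted p under 0.05 (0.494% higher and 1.11% lower) and none of the 8 among them. The ascending effect minus the descending one was 0.37 ± 0.19 for Cyp2s1, 0.55 ± 0.33 for Cyp2c65, 0.34 ± 0.39 for Cyp2c55 and -0.52 ± 0.34 for Cyp2d26 (adjusted p = 1 for each). The call of a regional difference in Cyp2s1 in mutants and not in controls is therefore not shown to differ between genotypes.

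Levels by cage were compared over both genotypes. None of 8 genes tested in the ascending and 7 in the descending colon passed the moderated F test of limma, where 1.32% of genes did in the ascending and 0.597% in the descending colon, and at an unadjusted p under 0.05 there were 15.6% and 13.2% of genes, and 3 of the 8 and 2 of the 7. In the ascending colon Cyp2c65 averaged 224 FPKM in mutants and 146 FPKM in controls of cage A, 133 and 98.8 FPKM in cage B and 167 and 113 FPKM in cage C (adjusted p = 0.126). Cyp3a13 averaged 111 and 112 FPKM in mutants and controls of cage A, 125 and 152 FPKM in cage B and 180 and 163 FPKM in cage C (adjusted p = 0.131). It passed without ascending control B1 (limma adjusted p = 0.0436), without cage B (adjusted p = 0.0126) and with array quality weights (adjusted p = 0.0104). Cyp4b1 averaged 37.3 and 46, 41.2 and 38.7, and 81.7 and 72.7 FPKM in mutants and controls of cages A, B and C (adjusted p = 0.265), and it passed without cage B (adjusted p = 0.033) and with array quality weights (adjusted p = 0.043). In the descending colon Cyp4f14 averaged 24.3 and 43.3, 6.7 and 11.3, and 8.65 and 5.48 FPKM in the same order (adjusted p = 0.108). It passed without descending mutant A2 (limma adjusted p = 0.0396) and with array quality weights (adjusted p = 0.0265). Cyp2c65 passed in the ascending colon without ascending control B3 (adjusted p = 0.0428) and with array quality weights (adjusted p = 0.0306). Cyp2d26 in the descending colon had a limma adjusted p of 0.189 for cage, and 0.0344 with array quality weights. A dependence of the genotype difference on cage passed for none of 8 genes tested in the ascending and 7 in the descending colon, where 0% of genes in the ascending and 0.00818% in the descending colon did, and 10.4% and 4.42% had an unadjusted p under 0.05. This last held for Cyp3a13 in the descending colon (limma adjusted p = 0.879).

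Within a region the P450s did not vary as one. After subtracting each region's mean, the correlation of log2 levels over the 30 libraries was highest between Cyp2d26 and Cyp4b1 (r = 0.64) and between Cyp2c65 and Cyp2s1 (0.48), and lowest between Cyp2j6 and Cyp4f14 (-0.34). These libraries share depth, cage and tissue makeup, and the values are a description. The genes most like Cyp4b1 in this measure were Acaa1b, a peroxisomal thiolase (0.91), Cubn, the receptor cubilin (0.83), and Gdpd2 (0.78), and those most like Cyp2d26 were Cubn (0.77), the disaccharidase gene Sis (0.73) and Slco2b1 (0.72). Cyp2j6 went with Ubl4a, the fumarate hydratase gene Fh1 and the respiratory chain gene Ndufb10 (0.91 each). Cyp4f14 went with Apol10a (0.80) and Tmigd1 (0.77), and Cyp2c55 with Cystm1 (0.79), 4931406C07Rik and Gltp (0.78 each). Cyp3a13 had Eno1b (0.73), Anks4b (0.72) and Usp25 (0.71), Cyp2c65 had Myo1d (0.73), Mogat2 and Arhgap20 (0.67 each), and Cyp2s1 had Cds1 (0.68), Erbb3 (0.65) and Erbb2 (0.62).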

How the data were processed

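Libraries were made from total RNA after ribosomal depletion (Kapa, RiboErase) and read as single 50-base reads on an Illumina HiSeq, per the labels' protocols. The tools named are STAR, DESeq2 and bcl2fastq 2.17, and the build is GRCm38 (mm10), per the submitters' processing notes. The deposited table holds FPKM values, computed by the authors, with 2 decimals. For their counter, gene lengths and annotation no label or header gives a name. Whether strand was used in counting is not known either, so antisense reads cannot be told apart.

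Groups follow the labels. Values became log2(FPKM + 1), genes averaging 0.5 FPKM or more in a comparison's libraries were tested, and limma 3.58.1 in R 4.3.3 (lmFit, eBayes with a trend) was fitted, two-sided, with Benjamini-Hochberg adjustment over all genes tested and a threshold of 0.05. Region was tested in the 14 controls and the 16 mutants, and genotype in the 15 libraries of each region, with cage as a covariate. Cage was tested with genotype as a covariate. Depth was estimated from the spacing of low FPKM values, entered no test, and the precision comes from the spread between libraries. The fits were tested on simulated data.

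The genes and lists were chosen with earlier results of these data known. The rule for other names takes the 6 P450s of at least 1 FPKM with the largest absolute regional difference in controls, per list up to 3 genes with the smallest p by region and 2 per genotype test, and the 3 genes most correlated with each P450, of which 1 is not reported here. Positions are from GENCODE M21, where 14472 identifiers matched. Shared sequence was counted over 50-base stretches of each gene's transcripts. Alternatives are given in the closing section.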

Additional observations from a re-analysis of the deposited data

Results flagged for a closer look

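Dixon's 95% limit was applied on the log2(FPKM + 1) scale to the gap between the highest or lowest library and the next. In 8 of 32 groups of libraries (8 genes in 4 groups) the gap was beyond it. Chance gives this in about 1 in 20 groups for normal values and independent groups. Here the same libraries recur for every gene, so the groups are not independent. Values below are in FPKM. Ascending control B1 had 9.35 FPKM of Cyp2d26, where the other 6 had 29.5 to 56.0 FPKM, and 9.82 FPKM of Cyp4b1, where the others had 41.4 to 104 FPKM. In the same library Cubn was 0.13 FPKM (others 2.51 to 9.26), Sis 0.03 FPKM (3.58 to 14.6) and Acaa1b 2.14 FPKM (10.98 to 19.6), and smooth muscle markers summed to 426 FPKM, the highest of that group.

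Descending control A2 had 73.18 FPKM of Cyp4f14, where the others had 4.84 to 13.5 FPKM, and 3.82 FPKM of Cyp2j6, where the others had 11.4 to 14 FPKM. There Apol10a was 51.1 FPKM (others 0.22 to 2.67), Tmigd1 18.1 FPKM (0.07 to 0.52) and Fh1 11.5 FPKM (20.0 to 26.9), and colon epithelium markers summed to 3357 FPKM, the lowest of that group. Descending mutant C1 had 4.08 FPKM of Cyp2j6 (others 9.32 to 17.3) and 0.50 FPKM of Cyp4b1 (others 0.06 to 0.24), with colon epithelium markers at 3585 FPKM, again the lowest of its group. The part of these markers was not tested. Ascending mutant B1 had 13.15 FPKM of Cyp2j6, where the others had 23.3 to 34.1 FPKM, and descending mutant A2 had 5.73 FPKM of Cyp2c65, where the others had 2.03 to 3.27 FPKM.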

How the results depend on the processing

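The regional call held for 7 to 8 genes in mutants and 6 to 7 in controls under all 13 other settings, and for 8 and 7 when any library was left out. The losses were Cyp2j6 and Cyp2s1, as given above. Without cage C 3528 genes passed in mutants in place of 5368, and without cage B 2069 and without cage C 2567 in controls in place of 4744. Between genotypes in the ascending colon, 3 of the 8 passed with array quality weights, where 746 of 12178 genes did. Without cage B 2 of the 8 passed, where 652 of 12115 genes did. On leaving out a library 0 to 170 genes passed (170 without ascending mutant B1). With 1 fit of all 30 libraries 3 genes passed, and without the 3 libraries that lay apart 1. In the descending colon 1 gene passed with array quality weights.

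For cage in the ascending colon, 3 of the 8 passed with weights, 2 without cage B, 1 without the 3 libraries apart and 0 to 1 on leaving out a library; in the descending colon it was 2 with weights and 0 to 1. Genes called for cage in the ascending colon were 161 of 12178. They were 1579 with weights, 0 without cage A, 1599 without cage B and 16 without cage C. Without the 3 libraries they were 362, and 44 to 581 on leaving out a library. In the descending colon they were 73 of 12219, against 973 with weights, 4 without cage A, 19 without cage C and 33 to 176. Genotype by cage gave 0 to 381 genes in the ascending and 1 to 132 in the descending colon on leaving out a library, and 1 with a pseudocount of 0.1, 5 without the 3 libraries (ascending) and 2 with weights (descending).

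None of the values that turned sign had passed. Regional Cyp2s1 in controls was -0.02 with weights, -0.12 without cage C and -0.09 to 0.09 on leaving out a library. Between genotypes in the ascending colon, Cyp3a13 was 0.00 with median-of-ratios scaling, 0.01 with weights, 0.05 without cage B, 0.02 without the 3 libraries and -0.11 to 0.02 on leaving out a library; Cyp4b1 was -0.22 with weights, -0.02 without cage B, -0.12 without the 3 libraries and -0.12 to 0.25. In the descending colon, Cyp2c55 was -0.08 with quantile normalization, -0.07 without cage A, -0.23 without cage C and -0.10 to 0.32 on leaving out a library. Cyp2c65 was 0.06 with a pseudocount of 0.1, 0.02 with median-of-ratios, 0.04 with quantile normalization, 0.29 with weights, 0.17 without cage A, 0.03 without cage B, 0.33 without the 3 libraries and -0.24 to 0.31. Cyp2j6 was -0.02 with weights, -0.37 without cage A, -0.05 without the 3 libraries and -0.23 to 0.23. Cyp2s1 was -0.04 with weights, -0.07 without cage C, -0.05 without the 3 libraries and -0.09 to 0.08, and Cyp4f14 was 0.05 with weights, 0.01 without cage B and -0.47 to 0.09. Genotype by region gave -0.07 for Cyp2j6 without cage C, -0.10 for Cyp4b1 with weights, -0.02 without the 3 libraries and -0.01 to 0.37, and 0.39 for Cyp4f14 without cage C and -0.44 to 0.13. The cause was not tested.

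Same-numbered libraries did not deviate together: 4 of 15 regional pairs (r from -0.26 to 0.34) and 3 of 12 genotype pairs (-0.44 to 0.27) were over 0.1, and 0 of 15 correlated best with their own number. With a replicate block the genes called were 8 and 7 of the 8 for region in mutants and controls (5219 and 4236 genes) and 0 for each genotype test. Under the block Cyp3a13 was 0.02 in the ascending colon, and Cyp2c55 -0.03 and Cyp2j6 -0.10 in the descending colon. For cage, no fit without the cage term and no block was run, since cage is the tested term and numbers lie within cages. In simulated data, 32.8% of changes of 0.5 and 83.6% of changes of 1.0 were recovered for region in controls, 44.8% and 92.5% for genotype in the ascending and 31.3% and 77.6% in the descending colon, 14.9% and 68.7% for genotype by region, and 0% and 22.4% (ascending) or 7.46% (descending) for genotype by cage, so that small differences can be missed; Cyp4b1 in the descending colon rests on few reads.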
